A study of Mus musculus with 4 samples.

Results

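Glypicans and the enzymes that pattern heparan sulfate were followed through the cell classes of mouse alveolospheres, with and without a knockdown of YAP and TAZ in the fibroblasts. The 10 genes were chosen by symbol, out of 32285 genes counted: the glypicans Gpc1, Gpc3, Gpc4 and Gpc6, the N-deacetylase and N-sulfotransferase Ndst1, the 6-O-sulfotransferases Hs6st1, Hs6st2 and Hs6st3, and the endosulfatases Sulf1 and Sulf2. All 10 were counted, and all 10 passed the filter on low counts in both the fibroblast and the epithelial compartment. No measured value entered the choice of symbols, but the choice was made with earlier results of these data known.

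Heparan sulfate is a long sugar chain attached to core proteins at the cell surface and in the matrix, where it binds growth factors such as FGFs, Wnts and hedgehog proteins. Glypicans are core proteins held to the membrane by a glycolipid anchor. In the Golgi, N-deacetylase/N-sulfotransferases start the modification of the chain and 6-O-sulfotransferases add sulfate at the 6-O position of glucosamine, while the secreted endosulfatases remove part of those 6-O-sulfates outside the cell. In the lung, fibroblasts and epithelium both carry such chains.

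The cultures combined alveolar type 2 (AT2) cells, the surfactant-making progenitors of the alveolus, with lung fibroblasts sorted for PDGFRα. AT2 cells had been sorted by Lysotracker, a dye of acidic organelles. The control group was labelled wildtype; the knockdown group combined wildtype AT2 cells with a PDGFRa-specific YAP/TAZ knockdown, so the epithelial cells of both groups carried no knockdown by label. All 4 cultures received doxycycline at 3 µg/ml, dissolved in DMSO, between day 7 and harvest at day 14, so the drug was shared by both groups. The sources used here do not give the construct of the knockdown or the age of the mice. Each group had 2 libraries, which the labels call biological replicates without naming separate animals or cultures behind them, so every p-value measures the spread between these libraries only.

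The 10x Multiome chemistry reads RNA together with open chromatin in each cell, and only its single-cell RNA counts are used here. The 4 libraries held 6508 to 15000 cells and 44284602 to 71523447 unique molecular identifiers (UMIs, each standing for 1 captured RNA molecule). Median depth was 3875.5 and 4142 UMIs per cell in the controls against 4961 and 5946 in the knockdowns. Of all cells, 4.70% carried a barcode also found in another library. Leaving them out kept the 3 fibroblast calls below, with log2 changes of -2.29 for Hs6st2, -1.21 for Gpc3 and -0.87 for Gpc6. The targeted gene Yap1 read 61.3 and 64.9 CPM (counts scaled to the same library total, here after TMM normalisation) in control fibroblasts against 40.9 and 36.4 in knockdown fibroblasts, a log2 fold change of -0.71 ± 0.11 (SE, adjusted p = 0.00864 by edgeR, and 0.0559 without knockdown library 2). The other target, Wwtr1 (which encodes TAZ), read 239 and 231 against 194 and 171 CPM and did not pass (adjusted p = 0.115). In the epithelium, which carried no knockdown by label, Wwtr1 read 313 and 271 against 243 and 209 CPM (log2 -0.37 ± 0.19, adjusted p = 0.486) and Yap1 111 and 97.1 against 91.7 and 92.8 CPM (log2 -0.17 ± 0.16, adjusted p = 0.697), both without overlap and neither passing.

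Cells were taken in the classes the authors deposited. The fibroblast compartment was the sum of all fibroblast, smooth muscle, EMT-like and unknown mesenchymal classes. The epithelial compartment was the sum of the transitional epithelial class, the cycling AT2 class and 3 of the 5 clusters of the AT2 class. Clusters 19 and 23 of the AT2 class held fibroblast markers at 76.5% and 56.1% of their level in fibroblasts and were left out of both compartments. In the 3 AT2 clusters kept, the same markers reached 10.5% (cluster 9), 17.1% (cluster 14) and 20.7% (cluster 32) of their fibroblast level.

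The 3 members on the X chromosome, Hs6st2, Gpc4 and Gpc3, lie in a row on the minus strand. In GRCm38 with the GENCODE M21 annotation, Hs6st2 (ENSMUSG00000062184) spans chrX:51387212-51681856, Gpc4 (ENSMUSG00000031119) chrX:52053021-52165252 and Gpc3 (ENSMUSG00000055653) chrX:52272426-52613950. The sequences below are shown because YAP and TAZ act through TEAD factors, whose binding core is read as GGAATG, or CATTCC on the other strand. Windows of 300 bases around RefSeq gene starts (GRCm38.p6, 250 before and 50 after) were in the table for 6 of the 10 members, in 8 windows. The motif was found on either strand in 3 of these 8 windows, beside 14.7% of the 32851 windows of all genes. Each short sequence runs 5′ to 3′ on the minus strand, with the motif in capitals.
Hs6st2, chrX:51681588-51681617: tgcctgaaggggGGAATGgcactgcctgcg
Gpc4, chrX:52165037-52165066: gggtcccgcgccCATTCCacgcctttttcc
Sulf2, chr2:166155640-166155669: ccctttctttccCATTCCcggcccatgtct
The Hs6st2 match lies in an exon of Hs6st2 at the border of its untranslated and coding parts, with the first motif base at -3 from the RefSeq start. The Gpc4 match lies at -131 from the RefSeq start, within a GENCODE 5′ untranslated exon. The Sulf2 match starts at 27 bases after a RefSeq start and lies within a GENCODE 5′ untranslated exon. For contrast, the 250 bases before the RefSeq start of Gpc3, which hold neither spelling, are given on the same strand; they lie outside Gpc3 and within the span of A630012P03Rik, a non-coding gene on the opposite strand.
Gpc3, chrX:52613975-52614224: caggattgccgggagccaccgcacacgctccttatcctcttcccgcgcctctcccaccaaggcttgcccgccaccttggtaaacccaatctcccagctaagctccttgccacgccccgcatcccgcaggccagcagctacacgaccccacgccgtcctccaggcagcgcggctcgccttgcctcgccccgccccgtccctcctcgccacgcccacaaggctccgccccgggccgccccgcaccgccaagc
A match or its lack describes these letters only. As given below, Hs6st2 and Gpc3 fell in knockdown fibroblasts, and Gpc4 and Sulf2 did not pass the test.

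In the fibroblasts, 3 of the 10 members fell with the knockdown, none rose and 7 did not pass. The 6-O-sulfotransferase Hs6st2 fell by 4.89-fold, and the glypicans Gpc3 and Gpc6 fell by 2.31-fold and 1.84-fold. Among all 17481 genes tested, 10.6% were called, 4.42% as risen and 6.22% as fallen. Counts summed per library were tested with edgeR's quasi-likelihood test, with Benjamini-Hochberg adjustment over all genes and a threshold of 0.05; log2 fold changes are knockdown minus control. The median log2 fold change of the members was 0.0013, beside 0.012 for all genes. In 8 of 10 members the libraries of the groups did not overlap, which held for 59.0% of all genes tested. In such sums, fewer cells of a type and less RNA per cell cannot be told apart.

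**Figure D1:**
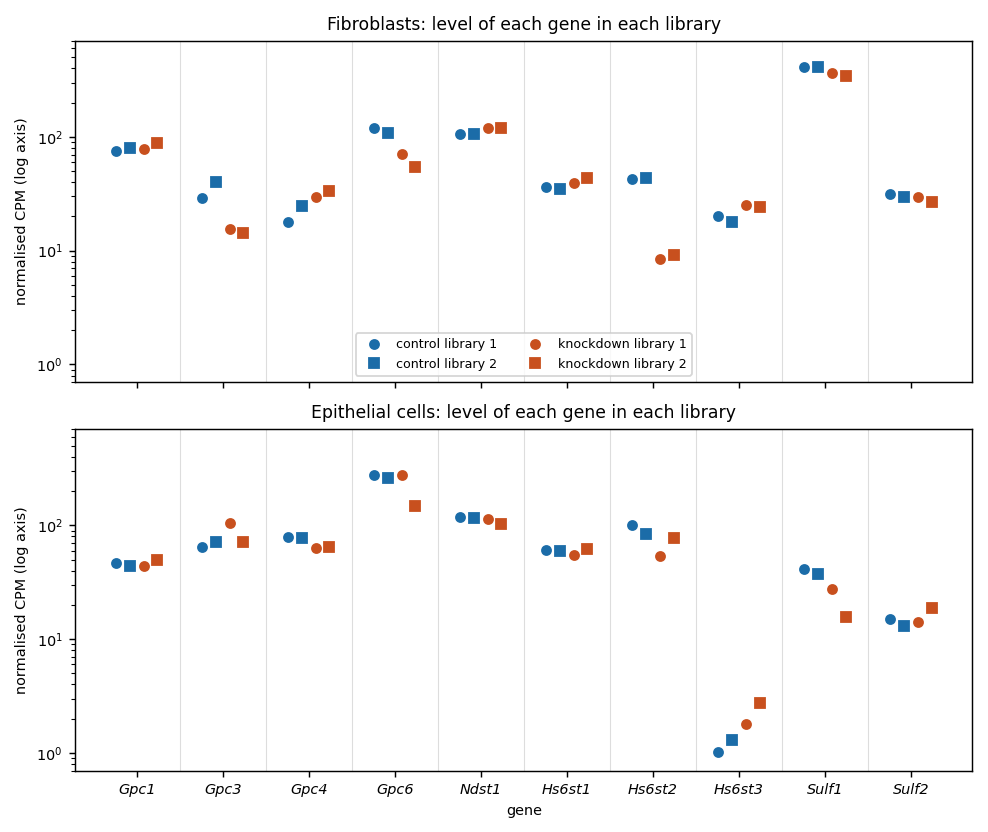
Level of each member in the summed fibroblast and epithelial counts, in normalised CPM on a log axis; each point is 1 library, 2 control and 2 knockdown. Hs6st2, Gpc3 and Gpc6 sat lower in both knockdown fibroblast libraries, while the epithelial points lay closer together for most members.

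Among the glypicans, Gpc3, a core protein known to bind hedgehog and Wnt ligands, read 29.1 and 40.2 CPM in the control fibroblasts and 15.6 and 14.4 CPM in the knockdown fibroblasts. Both knockdown libraries lay below both controls, and the controls differed more between themselves than the knockdowns did. The log2 fold change was -1.21 ± 0.16 (adjusted p = 0.00510). With each kept cluster given the same share of cells in every library it was -0.84 (adjusted p = 0.0544). That fit, limited to clusters with at least 50 cells in every library, was the single alternative of 17 that lost the call. The antisense genes Gm14582 and A630012P03Rik overlap Gpc3 and both read under 1 CPM, and the sources used here do not say whether counting used strand.

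Gpc6 (ENSMUSG00000058571, chr14:116925315-117976544, plus strand), the longest of the 10 genes, read 121 and 108 CPM in the controls against 70.2 and 54.2 CPM in the knockdowns. The groups did not overlap. The log2 fold change was -0.88 ± 0.15 (adjusted p = 0.0109), and the call held in 17 of 17 alternatives. With a correction for gene length it was -0.57 (adjusted p = 0.0126).

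Gpc4 moved the other way in level but did not pass. This glypican, a modulator of Wnt and FGF signalling in other tissues, read 17.8 and 24.5 CPM in the controls against 29.4 and 33.4 CPM in the knockdowns. Every knockdown library lay above every control, with a log2 difference of 0.57 ± 0.16 (adjusted p = 0.0627). It passed in 7 of 17 alternatives, among them DESeq2 (adjusted p = 0.0194) and the fit without control library 2 (log2 0.82, adjusted p = 6.10e-05).

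Gpc1 (ENSMUSG00000034220, chr1:92831645-92860779, plus strand), a glypican known as a co-receptor of FGF signalling, read 75.04 and 79.2 CPM against 77.8 and 88.4 CPM. The groups overlapped, and the log2 fold change was 0.11 ± 0.11 (adjusted p = 0.567).

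Ndst1 (ENSMUSG00000054008, chr18:60684494-60748650, minus strand), the enzyme that opens chain modification, read 105 and 107 CPM in the control fibroblasts and 120 CPM in both knockdown libraries. With a log2 fold change of 0.17 ± 0.11 it missed the threshold (adjusted p = 0.323). The ribosomal protein gene Rps14 overlaps Ndst1 on the opposite strand and read 928 to 1096 CPM in the same libraries, so reads of the shared stretch cannot be told apart without strand.

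The 3 6-O-sulfotransferases parted. Hs6st2 read 42.2 and 43.4 CPM in the control fibroblasts and 8.43 and 9.09 CPM in the knockdown fibroblasts. Within each group the libraries lay close together, and the groups were far apart. The log2 fold change was -2.29 ± 0.11 (adjusted p = 6.61e-05), and the call held in 17 of 17 alternatives with adjusted p no higher than 0.00514. With the same share of each kept class in every library it was -1.37, and with the same share of each kept cluster -1.02 (adjusted p = 0.00514). The class version kept only the 8 fibroblast classes with at least 50 cells in every library. Wnt4+, Tgfbi+ and smooth muscle cells were thus left out of it. These classes, with under 50 cells in some library, supplied no cluster to the cluster version either. That version kept only fibroblast clusters 1, 3, 4, 6, 8, 10, 11, 22, 25 and 26, among them clusters 8 and 11 of the Fibroblasts class. With cells above 20% mitochondrial UMIs left out the Hs6st2 change was -2.77.

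Hs6st1 (ENSMUSG00000045216, chr1:36068400-36106446, plus strand) read 36.4 and 34.9 CPM in the controls against 39.2 and 43.7 CPM, and missed the threshold at log2 0.22 ± 0.11 (adjusted p = 0.232).

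Hs6st3 (ENSMUSG00000053465, chr14:119138341-119869815, plus strand), which adds the same 6-O-sulfate as its paralogs, read 20.2 and 17.7 CPM in the controls against 25.0 and 24.2 CPM in the knockdowns. The sum was thus higher in both knockdown libraries, at a log2 fold change of 0.38 ± 0.11 that did not pass (adjusted p = 0.0765). With the same share of each kept class in every library the direction turned, to a log2 fold change of -0.84 (adjusted p = 0.0110). With the same share of each kept cluster it was -0.59 (adjusted p = 0.0863). Both versions left out the Wnt4+ cells, which held much of the Hs6st3 signal in the knockdowns, as given below.

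The endosulfatases did not pass. Sulf1 (ENSMUSG00000016918, chr1:12692277-12861192, plus strand) read 407 and 413 CPM in the control fibroblasts and 362 and 340 CPM in the knockdown fibroblasts, without overlap, at a log2 fold change of -0.23 ± 0.13 (adjusted p = 0.305). Sulf2 (ENSMUSG00000006800, chr2:166073089-166155663, minus strand) read 31.4 and 29.6 CPM against 29.7 and 27.1 CPM, with overlap, at -0.10 ± 0.11 (adjusted p = 0.561). The co-activator gene Ncoa3 overlaps Sulf2 on the opposite strand and read 37.4 to 42.6 CPM.

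Shares of cells with at least 1 UMI were compared after each cell was thinned to 2000 UMIs, because the knockdown cells were deeper. Cells under that depth were left out, which kept 93.5% of control and 97.6% of knockdown fibroblasts. Of control fibroblasts 5.99% (95% exact binomial interval 5.56 to 6.45) and 6.03% (5.59 to 6.499) carried a UMI of Hs6st2, at median depths before thinning of 3938 and 4160.5 UMIs. Of knockdown fibroblasts 1.15% (0.917 to 1.42) and 1.42% (1.11 to 1.78) did, at 4786.5 and 5865 UMIs.

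The difference in mean share for Hs6st2 was -4.73 percentage points, with an exact permutation p of 0.333, two-sided test, the smallest that 2 against 2 libraries can give. Without thinning the shares were 11.1% and 12.1% against 3.12% and 4.06%. In cluster 9 of the AT2 class, the epithelial cells with the lowest Hs6st2 level, the thinned share was 1.33% and 0.649% in the controls and 0.571% (0.186 to 1.33) and 0.897% (0.109 to 3.20) in the knockdowns, at median depths of 3807 to 5466 UMIs. In each knockdown library the fibroblast share was above that of cluster 9, with overlapping intervals, and the classes differed, as given below. The intervals cover counting error only.

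The thinned share of fibroblasts with a UMI of Gpc6 was 19.1% and 16.3% in the controls and 10.7% and 8.63% in the knockdowns. For Gpc3 it was 5.65% and 7.36% against 2.69% and 2.66%. For Gpc4 the shares ran the other way, 3.29% and 4.47% against 5.32% and 6.75%. All 3 differences had the exact permutation p of 0.333.

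Of 49 other heparan sulfate genes in the lists of core proteins, linkage and polymerising enzymes, other modifying enzymes, sulfate donors and degrading enzymes, 43 were tested in fibroblasts, 3 rose, 2 fell and 38 did not pass, with a median log2 fold change of 0.20. The share called, 11.6%, was near the 10.6% of all genes tested. Col18a1, the heparan sulfate-bearing collagen of basement membranes, rose from 102 and 132 CPM to 247 and 254 CPM (log2 1.10 ± 0.15, adjusted p = 0.00542). Ext1, a polymerase of the chain, fell from 682 and 593 CPM to 410 and 374 CPM (log2 -0.70 ± 0.15, adjusted p = 0.0263). The syndecan Sdc3 rose by log2 0.65 (adjusted p = 0.0117), the lysosomal enzyme gene Idua rose by log2 0.61 (adjusted p = 0.0265), and the syndecan Sdc4 fell by 0.55 on the log2 scale (adjusted p = 0.0388).

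Of 15 chondroitin and dermatan sulfate enzymes tested, the chain-making Chpf and the sulfotransferases Chst13 (log2 1.79, from 0.181 to 0.637 CPM) and Chst14 rose, Csgalnact1 fell (log2 -0.54, adjusted p = 0.0265) and 11 did not pass. Of 5 core proteins of these chains Cspg4 fell (log2 -0.63, adjusted p = 0.0190). Among 13 FGF receptor and feedback genes, the decoy receptor gene Fgfrl1 (log2 0.60) and the FGF feedback inhibitor genes Spry4 (log2 0.72), Spry1 and Spred1 rose, and 9 did not pass. Of 9 hedgehog genes the receptor gene Ptch1 and the transcription factors Gli1 and Gli2 (log2 0.59, adjusted p = 0.0154) rose, Gli3 and the co-receptor Cdon fell, and 4 did not pass. Of these 19 called list genes, Col18a1 was also called in all 4 fits that left out 1 library. The other 18 lost the call in at least 1, most often without knockdown library 2 (15 genes) or knockdown library 1 (13 genes), with a highest adjusted p from 0.0583 for Sdc3 to 0.279 for Cdon.

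Markers of AT2 cells were also present in the fibroblast sums, at 884 and 942 CPM in the controls against 2454 and 1290 CPM in the knockdowns, where 4 of 10 markers rose. The 5 general epithelial markers summed to 230.2 and 190 CPM in control fibroblasts and 180 CPM in both knockdown libraries, with 1 of 5 fallen, against 3019 to 4657 CPM in the epithelium. Cluster 9 read Gpc3 at 379% to 1210% of the fibroblast level and Gpc6 at 304% to 451%, but Hs6st2 at 9.38% to 42.8%. Airway secretory markers summed to 1350 and 279.9 CPM in the control fibroblasts and 1.13 and 259 CPM in the knockdown fibroblasts. Some less abundant marker lists were lower in the knockdown fibroblasts. Mesothelial markers summed to 44.5 and 35.8 CPM in the controls against 13.03 and 11.1 CPM, with 2 of 3 tested fallen, and basal cell markers to 15.04 and 10.6 CPM against 0.957 and 1.10 CPM, with 3 of 3 fallen. The 3 cycling markers all fell, from 112 and 124 CPM to 49.4 and 65.5 CPM. Of 4 ciliated cell markers 2 fell, from sums of 19.99 and 11.8 CPM to 10.6 and 9.20 CPM. The part of RNA from these other cells in the fibroblast values was not tested.

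In the epithelial compartment 0 of 10 members were called by edgeR, 3 had an unadjusted p under 0.05, and DESeq2 and limma voom called 0 as well (2 at an unadjusted p under 0.05 with each). Of all 13952 genes tested there, 1.44% were called. The median log2 fold change of the members was -0.079, beside 0.022 for all genes, and in 5 of 10 members the groups did not overlap, as in 44.2% of all genes. The mix of epithelial classes differed between libraries. Cluster 9 held 488 and 492 control cells against 892 and 227 knockdown cells, and cycling AT2 238 and 205 against 472 and 164. Transitional cells numbered 1032 and 661 against 767 and 592. In these sums the mix of classes and the RNA per cell cannot be told apart.

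Sulf1 came closest to the threshold, at 41.6 and 37.5 CPM in the control and 27.6 and 15.8 CPM in the knockdown libraries. The groups did not overlap. The log2 fold change was -0.84 ± 0.22 (adjusted p = 0.0794), and it passed in 6 of 18 alternatives. Fibroblast markers in the same sums read 3375 and 2917 CPM in the controls against 2242 and 2594 CPM in the knockdowns. In cluster 9 Sulf1 read 4.11% to 6.61% of its fibroblast level, below the 7.57% to 14.1% of the fibroblast markers. Their part in the Sulf1 values was not tested.

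Hs6st2 read 99.9 and 84.6 CPM in the control epithelium and 53.3 and 78.0 CPM in the knockdown epithelium, at a log2 fold change of -0.50 ± 0.20 (adjusted p = 0.345). Without knockdown library 2 it was -0.81 (adjusted p = 0.0115), the one alternative of 18 in which it passed. Gpc6 had negative log2 fold changes in all 4 epithelial classes tested, from -0.99 to -0.29, as given below. In the epithelial sum it read 274 and 263 CPM against 274 and 149 CPM, so there 1 knockdown library alone was low (log2 -0.34 ± 0.24, adjusted p = 0.609). Without knockdown library 1 its log2 fold change was -0.85 (adjusted p = 0.0208).

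Gpc3, at 63.9 and 72.0 CPM against 104 and 71.4 CPM, overlapped between the groups (log2 0.37 ± 0.19, adjusted p = 0.488). Gpc4, at 79.5 and 77.4 CPM against 62.7 and 64.9 CPM, did not overlap but did not pass (log2 -0.30 ± 0.16, adjusted p = 0.502). Hs6st3 read 1.01 to 2.76 CPM in all 4 libraries. Gpc1, Ndst1, Hs6st1 and Sulf2 had log2 fold changes between -0.11 and 0.22. Of the 39 other heparan sulfate genes tested in the epithelium edgeR, DESeq2 and limma voom each called 0, and each gave 2 at an unadjusted p under 0.05. Airway secretory markers summed to 1374 and 300.3 CPM in the control epithelium and 9.72 and 583 CPM in the knockdown epithelium, and their part in the member values was not tested.

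The fibroblast effect differed from the epithelial effect in 3 members, in a joint fit with a term for each library; 3.55% of 17188 genes were called in that test. The difference was -1.81 ± 0.16 on the log2 scale for Hs6st2 and -1.59 ± 0.15 for Gpc3 (adjusted p = 0.000272 for both), and both held in 9 of 9 alternatives. None of these 9 gave classes or clusters the same share in every library, so the part of class sizes in the difference was not tested. For Gpc4 it was 0.85 ± 0.15 (adjusted p = 0.0101), with higher knockdown levels in fibroblasts and lower ones in epithelium, neither of which passed alone. Without control library 1 the Gpc4 difference was 0.60 (adjusted p = 0.106). For Gpc6 the difference of -0.52 ± 0.14 did not pass (adjusted p = 0.0805), and for Sulf1 the difference of 0.61 ± 0.18 did not pass either (adjusted p = 0.108).

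The members differed widely in level between the classes. Here the values are CPM of the class sums without further scaling, they are a description without a test, and classes with under 50 cells in a library are left out for that library. Levels of different genes are not compared, because the counts are not per length.

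**Figure D2:**
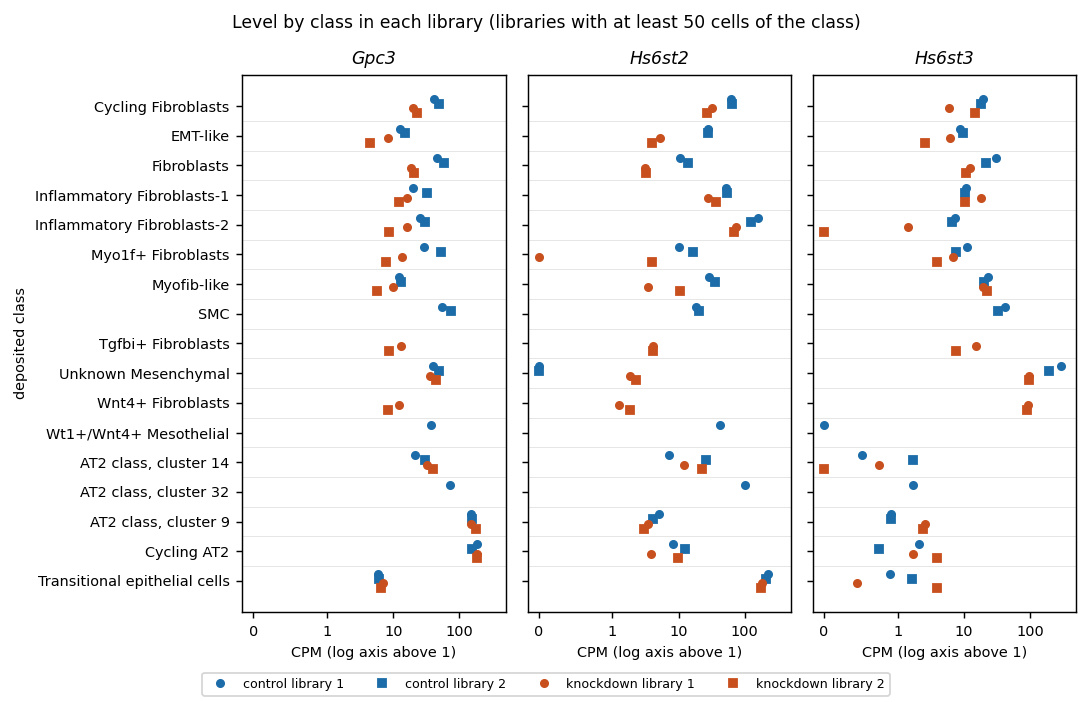
Level of Gpc3, Hs6st2 and Hs6st3 in each class, in CPM on an axis that is logarithmic above 1; each point is 1 library with at least 50 cells of that class. Gpc3 stood highest in cycling AT2 cells and cluster 9, Hs6st2 in transitional epithelial cells and Hs6st3 in the unknown mesenchymal class.

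Hs6st2 was highest in the transitional epithelial cells, an intermediate on the way from AT2 to AT1 cells, at 224 and 212 CPM in the controls against 179 and 175 CPM in the knockdowns. Inflammatory Fibroblasts-2 came next, at 159 and 125 CPM in the controls against 74.1 and 69.2 CPM in the knockdowns. In the control order these were followed by cluster 32 (101 CPM in 1 library), Cycling Fibroblasts (mean 63.5 CPM), Inflammatory Fibroblasts-1 (52.2 CPM), mesothelial cells (42.2 CPM in 1 library), Myofib-like (32.1 CPM) and EMT-like (27.8 CPM). Down to smooth muscle (19.6 CPM) no class overlapped with its neighbour in that order, and from smooth muscle to cycling AT2 (10.5 CPM) each did. In the unknown mesenchymal class both control libraries had 0 UMIs of Hs6st2, which at 3 counts allows a level of up to 14.8 and 9.85 CPM in these small sums.

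Hs6st3 had another order. It was highest in the unknown mesenchymal class, at 297 and 194 CPM in the controls against 95.4 and 97.4 CPM in the knockdowns. Smooth muscle (mean 37.6 CPM), Fibroblasts (25.8 CPM) and Myofib-like (21.7 CPM) followed in the controls, the last 2 overlapping. Every epithelial class lay under 2 CPM in the control mean. In the Wnt4+ class, which held under 50 cells in each control library, the knockdown libraries read 92.1 and 88.3 CPM.

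Gpc3 was highest in cycling AT2 cells, at 182, 152, 185 and 185 CPM, and in cluster 9, at 149, 152, 148 and 175 CPM, over control 1, control 2, knockdown 1 and knockdown 2. These lay above every fibroblast class in the control means. In the control order, classes from cluster 32 (70.9 CPM) through smooth muscle (64.9 CPM) and Fibroblasts (52.0 CPM) to Myo1f+ (40.7 CPM) overlapped with their neighbours. Transitional epithelial cells were lowest, at a control mean of 5.95 CPM, the class in which Hs6st2 was highest. The cycling AT2 mean was 28.1 times that of the transitional cells.

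Gpc6 followed Gpc3 in the epithelium, with its highest levels in cycling AT2 cells (528, 479, 482 and 323 CPM in the same order). Cluster 32 (394 CPM in 1 library) and cluster 9 (378, 347, 305 and 193 CPM) came next in the controls. Gpc4 was highest in the transitional cells, at 122, 120, 99.5 and 92.1 CPM. Gpc1 was highest in the Myofib-like and Inflammatory Fibroblasts-2 classes in the controls (means of 143.5 and 142.7 CPM, with overlap) and in Inflammatory Fibroblasts-2 in the knockdowns (194 against 136 CPM, without overlap). Its lowest level was in cluster 9 (control mean 17.7 CPM). In the control means, the highest class exceeded the lowest by 17.9 times for Gpc6, 8.61 times for Gpc4 and 8.10 times for Gpc1.

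Ndst1 and Hs6st1 were the most even, with ratios of highest to lowest class of 2.74 and 2.95. Ndst1 was highest in cluster 14 of the AT2 class (243, 211, 211 and 169 CPM), and 11 of its 14 neighbouring pairs in the control order overlapped. Hs6st1 was highest in the transitional cells (82.1, 82.1, 79.5 and 84.1 CPM).

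Sulf1 was a mesenchymal gene by level. It was highest in control smooth muscle, at 836.5 and 797 CPM, and lowest in cluster 9, at a control mean of 25.0 CPM, a ratio of 32.7. Sulf2 had its highest control level in mesothelial cells, at 103 CPM from 22 UMIs in 1 library. The EMT-like class, next in the control order, read 40.3, 43.2, 43.4 and 43.3 CPM, and cycling AT2 cells read 4.9, 5.2, 6.8 and 6.6 CPM.

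Within the classes, 111 pairs of a member and a class could be tested, 77 in 8 fibroblast classes and 34 in 4 epithelial classes, where each library held at least 50 cells. Of these, 17 fell and 1 rose. The count of 18 called pairs was 17, 19 and 22 without control library 1, control library 2 or knockdown library 1, and 7 without knockdown library 2. The same number, 7 of the 18, were called without each of the 4 libraries in turn: Hs6st2 in EMT-like, Fibroblasts and Myofib-like cells, Gpc3 and Gpc6 in Fibroblasts, and Hs6st3 in Fibroblasts and in the unknown mesenchymal class. Of the 10 members, 4 were called in the EMT-like class, where 6.25% of all genes were called, and 4 in the Fibroblasts class (8.21% of all genes). Of 10 members, 2 each were called in Cycling Fibroblasts (2.32%), Inflammatory Fibroblasts-2 (2.56%) and Myofib-like (7.33%), and 1 in Inflammatory Fibroblasts-1 (2.54%). In Myo1f+ Fibroblasts 1 of 8 tested members was called (2.48%), and in the unknown mesenchymal class 1 of 9 (1.31%).

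**Figure D3:**
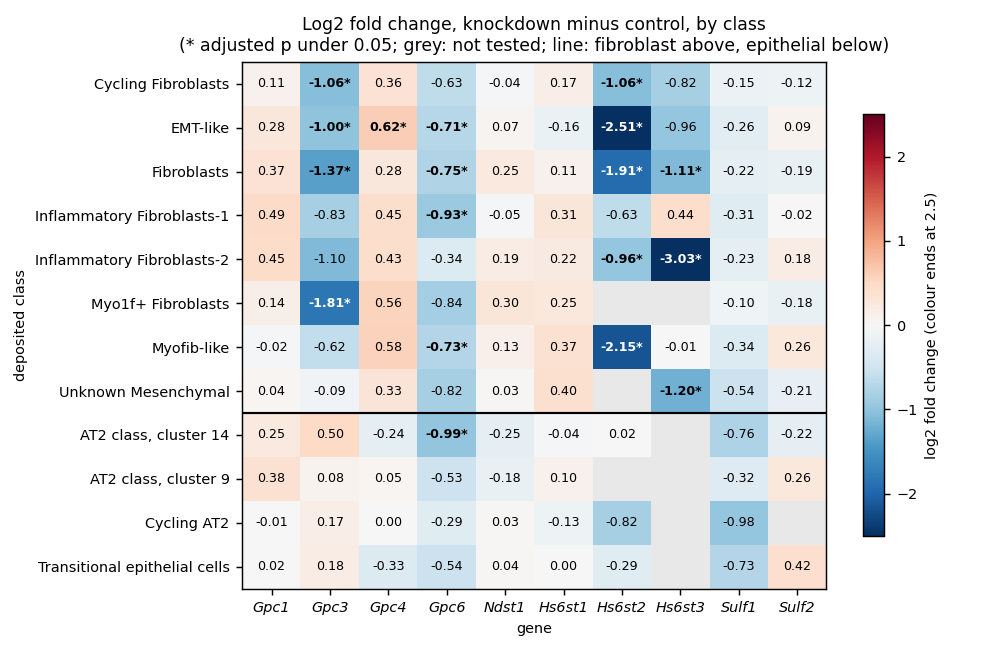
Log2 fold change, knockdown minus control, of each member in each class that could be tested; values with an asterisk passed edgeR's quasi-likelihood test with Benjamini-Hochberg adjustment over all genes of the class. Hs6st2 fell in 5 of 6 fibroblast classes tested, and the single rise was Gpc4 in the EMT-like class.

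Hs6st2 was lower in all 6 fibroblast classes in which it was tested and fell in 5. In the EMT-like class, the mesenchymal class with the deepest fall, it read 27.1 and 28.0 CPM in the controls against 5.62 and 3.81 CPM in the knockdowns (log2 -2.51 ± 0.21). In Myofib-like cells it read 27.6 and 35.2 CPM against 3.64 and 10.5 CPM (log2 -2.15 ± 0.30), and in Fibroblasts 10.2 and 14.1 CPM against 3.27 and 3.16 CPM (log2 -1.91 ± 0.22). The groups stood apart in each. Tested alone by edgeR, clusters 8 and 11 of the Fibroblasts class gave Hs6st2 changes of log2 -1.68 and -2.11 (adjusted p = 0.0303 and 0.187).

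In Cycling Fibroblasts Hs6st2 changed by log2 -1.06 ± 0.20, and in Inflammatory Fibroblasts-2, its highest fibroblast class, from 158 and 125 CPM to 77.1 and 67.5 CPM (log2 -0.96 ± 0.20). Both calls were lost without knockdown library 2 (adjusted p = 0.740 and 0.115), without knockdown library 1 (0.476 and 0.0537) and, for the second, without control library 1 (0.0554). In Inflammatory Fibroblasts-1 it was lower by log2 -0.63 ± 0.20 without passing (adjusted p = 0.102). In transitional epithelial cells, with 224 and 211 CPM against 182 and 173 CPM, it did not pass either (adjusted p = 0.685).

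A test of whether the knockdown effect differed between the 8 fibroblast classes, chosen after the data were seen, called 7.96% of 14888 genes. Hs6st2 was called (adjusted p = 9.89e-05) and stayed called without each library in turn. Hs6st3 was called (adjusted p = 0.000978), but not without control library 1 (adjusted p = 0.0940). Gpc3 was called at adjusted p = 0.0479, and at 0.314 and 0.562 without control library 1 or 2 it was not. Gpc1 was called at adjusted p = 0.0366 and in none of the 4 fits without 1 library (0.115 to 0.551).

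Gpc3 was lower in all 8 fibroblast classes and fell in 4. In Fibroblasts it read 44.1 and 58.4 CPM against 19.5 and 20.2 CPM (log2 -1.37 ± 0.16), and in Cycling Fibroblasts 40.1 and 49.95 CPM against 21.1 and 22.1 CPM (log2 -1.06 ± 0.21). Clusters 8 and 11 of the Fibroblasts class, tested alone by edgeR, gave Gpc3 changes of log2 -0.78 and -0.53 (adjusted p = 0.0436 and 0.541). It also fell in Myo1f+ Fibroblasts (log2 -1.81 ± 0.45) and EMT-like cells (log2 -1.002 ± 0.26). The calls outside Fibroblasts were lost without knockdown library 2 (adjusted p = 0.740, 0.168 and 0.246 in Cycling, Myo1f+ and EMT-like cells). The Cycling call was also lost without knockdown library 1 (0.476) and the Myo1f+ call without control library 2 (0.274). In the unknown mesenchymal class, with 37.4 and 48.4 CPM against 37.3 and 44.8 CPM, the groups overlapped (log2 -0.09 ± 0.34, adjusted p = 0.957). Its 4 epithelial log2 fold changes lay between 0.08 and 0.50, and none passed.

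Gpc6 was lower in all 8 fibroblast classes and fell in 4, with log2 fold changes of -0.93 in Inflammatory Fibroblasts-1, -0.75 in Fibroblasts, -0.73 in Myofib-like and -0.71 in EMT-like cells. Clusters 8 and 11 of the Fibroblasts class, tested alone by edgeR, gave log2 -1.20 and -0.49 (adjusted p = 0.000159 and 0.556). Without knockdown library 2, all but the Fibroblasts call were lost (adjusted p = 0.245, 0.282 and 0.0627). Its log2 fold change was negative in all 4 epithelial classes as well, from -0.99 to -0.29. Gpc6 was also the only member called in an epithelial class. In cluster 14 of the AT2 class it read 215 and 160 CPM in the controls against 101 and 87.3 CPM in the knockdowns (log2 -0.99 ± 0.20, adjusted p = 0.0157), where 1 of 9 tested members and 0.472% of all genes were called; the call was lost without control library 1 (0.581) or knockdown library 2 (0.282). In cluster 9 (0.922% of all genes called), cycling AT2 cells (1.34%) and transitional cells (0.304%) edgeR called 0 of 8, 8 and 9 members, with 1, 1 and 2 at an unadjusted p under 0.05.

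Hs6st3, whose fibroblast sum was higher in the knockdown, fell in 3 classes. In the unknown mesenchymal class it read 280 and 191 normalised CPM in the controls and 100 and 99.6 in the knockdowns (log2 -1.20 ± 0.21, adjusted p = 0.00370). In Fibroblasts it read 29.3 and 21.3 CPM against 12.8 and 10.6 CPM (log2 -1.11 ± 0.18, adjusted p = 0.00395). That class pools several clusters. In its clusters 8 and 11, tested alone by edgeR, Hs6st3 had log2 fold changes of -0.57 and 0.17 and did not pass (adjusted p = 0.345 and 0.920). The part of cluster sizes in the class value was not tested. In Inflammatory Fibroblasts-2 it rested on 46 and 45 control UMIs against 2 and 0 knockdown UMIs (adjusted p = 0.0244). That call was lost without control library 2 (0.111) or knockdown library 2 (0.195), and the gene was not tested there without control library 1.

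In Myofib-like cells the log2 fold change of Hs6st3 was -0.01 ± 0.19, and in Inflammatory Fibroblasts-1 it was 0.44 ± 0.30 (adjusted p = 0.527). Gpc4 rose in EMT-like cells, from 14.8 and 15.7 CPM to 24.8 and 21.98 CPM (log2 0.62 ± 0.17, adjusted p = 0.0416), a call that was lost without control library 1, knockdown library 1 or knockdown library 2 (adjusted p = 0.160, 0.181 and 0.0612). Its log2 fold changes were positive in all 8 fibroblast classes, from 0.28 to 0.62. The log2 fold change of Sulf1 was negative in all 8 fibroblast classes (-0.54 to -0.10) and all 4 epithelial classes tested, and passed in none of them. In Myo1f+ Fibroblasts the groups overlapped, at 501 and 473 CPM against 432 and 478 CPM.

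The fibroblast classes also changed in size, and 2 of them carry much of the Hs6st3 signal. Wnt4+ cells made up 0.058% and 0.279% of control fibroblast cells and 18.2% and 18.95% of knockdown fibroblast cells. The unknown mesenchymal class made up 0.706% and 0.923% against 5.84% and 7.12%. Of all Hs6st3 UMIs in fibroblasts (1126 and 972 in control libraries, 981 and 818 in knockdown libraries), the Wnt4+ class held 0% and 0.5% in the controls and 44.2% and 46.3% in the knockdowns. The unknown mesenchymal class held 5.3% and 6.1% against 15.9% and 20.7%, and the Fibroblasts class 41.3% and 35.7% against 15.6% and 14.8%.

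**Figure D4:**
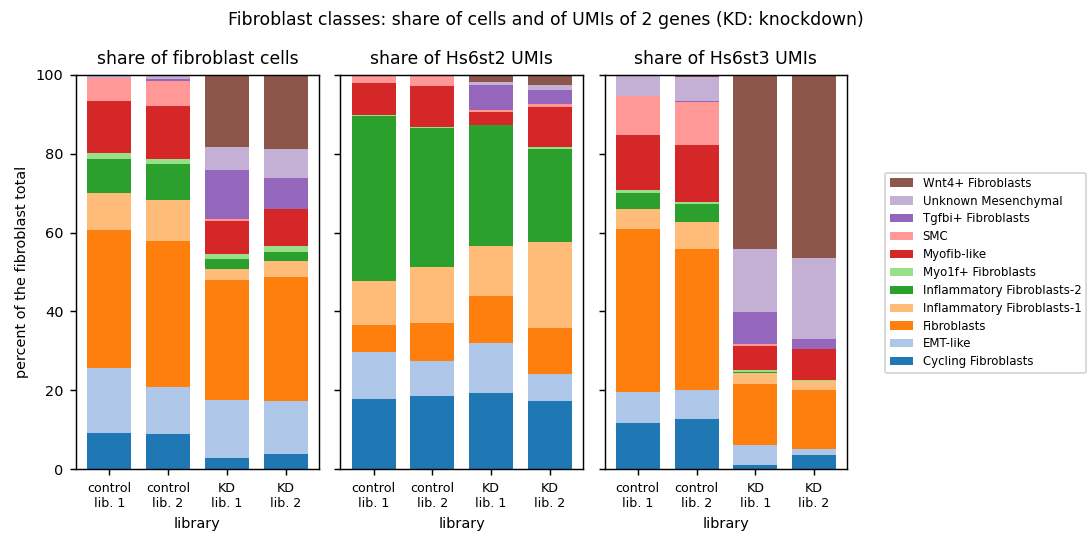
Share of fibroblast cells, of Hs6st2 UMIs and of Hs6st3 UMIs held by each class, in percent, stacked in 1 bar per library. Wnt4+ cells held 44.2% and 46.3% of the Hs6st3 UMIs of the knockdown libraries and at most 0.5% in the controls.

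Hs6st2 gave 2358 and 2379 UMIs in control fibroblasts and 331 and 307 UMIs in knockdown fibroblasts. Inflammatory Fibroblasts-2 held 41.6% and 35.2% of these in the controls and 30.8% and 23.5% in the knockdowns. In Wnt4+ cells the knockdown libraries read Hs6st2 at 1.3 and 1.9 CPM, so the class that was large in the knockdown was at the low end for this gene and at the high end for Hs6st3.

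Hs6st2, Gpc4 and Gpc3 are neighbours, with 5′ ends 483 kb and 449 kb apart. Within 1 Mb, measured between the lower coordinates of the gene spans, lie 18 other counted genes. For these 3 members the lower coordinate is the 3′ end. Of the 18 genes, 10 were tested in fibroblasts. Of these 10, 3 fell, 7 did not pass and 0 rose, beside 10.6% of all genes called. The 3 that fell were the splicing regulator gene Mbnl3 (log2 -1.49, adjusted p = 0.00461), the chromatin factor gene Phf6 (log2 -0.51, adjusted p = 0.0232) and the non-coding C430049B03Rik (log2 -2.39, adjusted p = 0.00160). With the same share of each kept class in every library none of the 3 passed, while Hs6st2 and Gpc3 did. The 3 stayed lower there, at log2 -0.81, -0.36 and -1.15 (adjusted p = 0.105, 0.153 and 0.0911), in a fit of fewer cells. Between the fallen Hs6st2 and Gpc3, Gpc4 stood higher in level. In the epithelium 0 of 8 tested neighbours were called by edgeR, DESeq2 or limma voom, and 0 had an unadjusted p under 0.05.

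**Figure D5:**
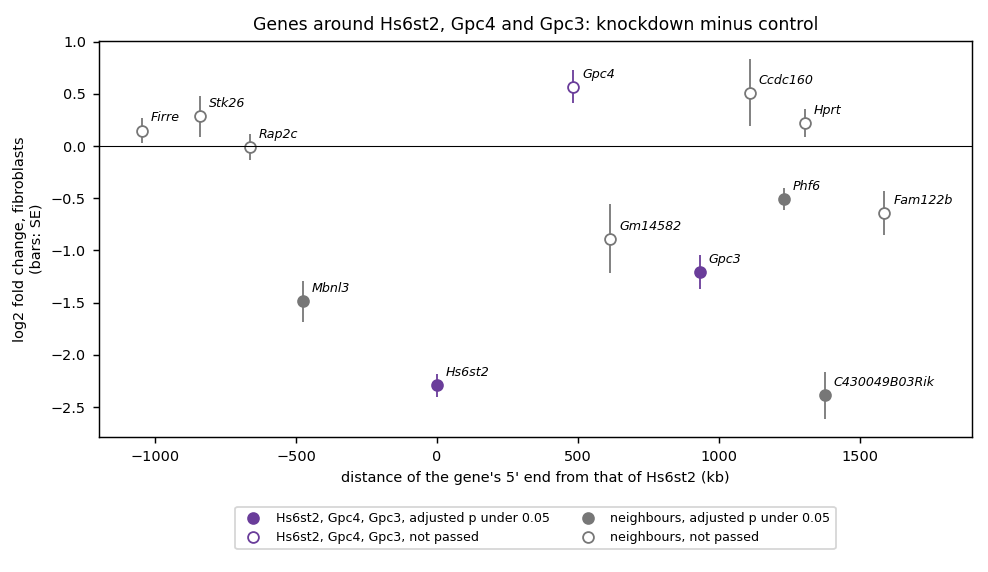
Log2 fold change ± SE in fibroblasts, knockdown minus control, of the tested genes around Hs6st2, Gpc4 and Gpc3, against the distance of their 5′ ends from that of Hs6st2 in kb. Hs6st2 and Gpc3 lay below 0, Gpc4 between them lay above 0, and 3 of the other 10 genes passed the test.

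Gene length moved with the knockdown effect. Spearman's rho between length and log2 fold change was -0.23 over 17474 genes in fibroblasts and -0.41 over 13948 genes in epithelium; genes are not independent replicates. Several members are among the longest genes tested in fibroblasts, with Gpc6 at the 99.7th percentile of length, Hs6st3 at the 99.4th, Gpc3 at the 97.5th and Hs6st2 at the 96.8th. With a length correction the fibroblast log2 fold changes were -2.04 for Hs6st2, -0.96 for Gpc3, -0.57 for Gpc6 and 0.68 for Hs6st3 (adjusted p = 0.000451, 0.0196, 0.0126 and 0.00933), so Hs6st3 then passed as a rise.

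The genes most like each member in level over the 15 deposited classes were picked as the 3 highest Pearson correlations among 12088 genes, from log2(CPM + 1) averaged over the libraries. For Hs6st2 they were Ptgs2os (r = 0.93), Prss23 and Cavin1, and for Hs6st3 the iron exporter gene Slc40a1 (r = 0.95), Chodl and Sntg2. For Gpc3 they were Morc1 (r = 0.92), Prrg3 and Acat2. For Gpc6 they were Ppa1 (r = 0.94), Mogs and Bcdin3d, for Gpc4 Cdk8 (r = 0.95), Ralgapb and Rabep1, and for Gpc1 they included 9230112E08Rik (r = 0.83) and Akr1c18. For Sulf1 they were Ssc5d (r = 0.99), the hedgehog co-receptor gene Boc and Dpysl3, and for Sulf2 Adamts7 (r = 0.90), Sgpl1 and Tspan6. For Hs6st1 they were Smad4 (r = 0.96), Cast and Wdfy1, and for Ndst1 A330076H08Rik (r = 0.74), Tmem205 and Wnt2.

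Among the members themselves, Hs6st2 correlated over the classes with Hs6st1 at r = 0.62 and with Hs6st3 at r = -0.55, and Sulf1 with Gpc4 at r = -0.68. The classes share libraries and differ in depth and cell number, so these values are a description.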

How the data were processed

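RNA of 4 alveolosphere libraries was analysed, 2 control and 2 knockdown. The authors deposited a matrix of whole-number unnormalised UMI counts of 45936 cells, per the file headers and the values. Reads were placed on GRCm38 (mm10) per the submitters' processing notes; aligner, counter, use of strand and treatment of introns were not given in the sources used here. No cell held over 35.0% mitochondrial UMIs, under 402 genes or under 533 UMIs. The authors also deposited, as a percent, how much of each cell's RNA was mitochondrial, and a doublet enrichment ratio from the chromatin data, per the file headers. Other cell columns, 52 in all, were left aside. No caller of doublets was run: clusters 19 and 23 of the AT2 class, with median doublet enrichment of 2.29 and 2.38 against 0.125 to 0.263 in the other AT2 clusters, were left out, and leaving out the top 5% of cells by that ratio was an alternative.

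Counts were summed per library and compartment or class, in the deposited classes (15 classes, 27 clusters), and classes were tested where every library held at least 50 cells. Comparisons used the quasi-likelihood test of edgeR 4.0.16 (R 4.3.3), after TMM normalisation and the default low-count filter, adjusted by Benjamini-Hochberg over all genes. Alternatives were DESeq2 1.42.0, limma voom (limma 3.58.1), upper quartile scaling, no filter, a robust fit, the replicate block, thinning to 2000 UMIs, cells of at most 20% mitochondrial UMIs, equal class shares, a loess correction for gene length, the whole AT2 class and leaving out each library, where a lone library is assumed to vary like the other group. Equal shares were drawn only from classes or clusters with at least 50 cells in every library. The steps were tested on simulated counts. Cell shares, levels and figures were computed in Python 3.11.15.

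The members and lists were chosen with earlier results of these data known. Named are all 10 members, list genes that were called (12 per compartment at most with values, by smallest p), genes within 1 Mb of an X-linked member and the 3 genes most like each member; 2 genes that fall under this rule are not reported here, and 1 of them was left out of its list before its members were counted. Positions are from GENCODE M21, which matched 32235 of 32285 gene identifiers, because the deposited gene table was read for symbols and identifiers only. The distance of 1 Mb was measured between the lower coordinates of the gene spans. No sequence is shown for the members without a window in the RefSeq table.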

Additional observations from a re-analysis of the deposited data

Results flagged for a closer look

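The knockdown effect differed between fibroblasts and epithelial cells, by the interaction test, in 3 members: by log2 -1.59 for Gpc3, 0.85 for Gpc4 and -1.81 for Hs6st2. In that test 3.55% of 17188 genes were called. The Gpc4 difference rested on 2 effects that each missed the threshold alone.

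The effect also differed between the 8 fibroblast classes in 4 members, by a joint test of class and group that called 7.96% of 14888 genes. The adjusted p was 9.89e-05 for Hs6st2, 0.000978 for Hs6st3, 0.0366 for Gpc1 and 0.0479 for Gpc3. The Hs6st3 and Gpc3 calls were not kept without every single library, as given above. The Gpc1 value passed in 0 of 4 fits that left out 1 library, with an adjusted p from 0.115 to 0.551.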

How the results depend on the processing

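Equal cluster shares, removal of shared barcodes and the test between fibroblast classes were chosen after seeing the data. Of 170 member values in fibroblasts under the alternatives, 152 kept their direction and side of the threshold, as did 159 of 178 in epithelium and 81 of 90 for the difference between compartments. That difference was not refitted with equal class or cluster shares. Members called in fibroblasts, 3 in the reported fit, were 5 with the mitochondrial limit, 5 with the length correction and 5 after thinning. Members called in epithelium, 0 in the reported fit, were 1 with the mitochondrial limit, 1 without the filter, 1 with the whole AT2 class and 0 to 2 leaving out 1 library. Members that differed between compartments were 5 without the filter against 3. Called pairs of member and class were 7 to 22 leaving out 1 library against 18, and members that differed between classes 1 to 3 against 4.

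Replicate numbers are shared by label only, and deviations of same-numbered libraries correlated at 0.115 in fibroblasts and 0.0828 in epithelium over 2 pairs. With the replicate number as a block the counts of calls were 6 in fibroblasts, 1 in epithelium and 32 pairs of member and class. For the alternatives, here and above, the share of all genes called is not given. Their counts therefore cannot be read as particular to the members.

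Directions turned for Hs6st3 in fibroblasts (log2 -0.84 with equal class shares, -0.59 with equal cluster shares). There the alternative itself removes the shift in class sizes, and both versions leave out the Wnt4+, Tgfbi+ and smooth muscle classes. The cluster version also leaves out part of the Fibroblasts class. Sulf2 turned as well (0.073 with equal class shares, 0.0065 with the length correction). In epithelium, with the whole AT2 class, the log2 values were -0.12 for Gpc1, 0.046 for Hs6st1, -0.47 for Hs6st3 and -0.079 for Sulf2. Leaving out each library in turn, Gpc1 ranged from -0.064 to 0.12, Gpc6 from -0.85 to 0.016 and Hs6st1 from -0.17 to 0.048, and the Gpc1 difference between compartments from -0.029 to 0.14. Gpc1 turned without control library 2 (-0.0055) or knockdown library 2. Gpc6 was 0.040 with the length correction, and Hs6st1 0.013 with equal cluster shares and 0.023 with the mitochondrial limit. For the other moves the cause was not tested. With 2 libraries a group, no test of a single share could reach the threshold.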
